A study of Mus musculus with 2 samples.

Results

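This section follows 10 genes of the unfolded protein response, namely Hspa5, Hsp90b1, Pdia4, Pdia6, Creld2, Manf, Dnajb9, Herpud1, Xbp1 and Atf4, in nuclei of the ventrolateral periaqueductal gray (vlPAG), a midbrain region. The 10 genes form a fixed list of names, with no threshold on a value, and all 10 of them were detected among the 55450 genes of the count tables. Single-nucleus RNA sequencing was run on 1 library of C57/BL6J wild-type mice fed a high-fat diet (HFD) for 7 weeks and on 1 library of mice of the same strain and genotype fed a normal diet (NFD) for the same time. Each library pooled the tissue of 18 mice that were 8 weeks old when the diets began, so no value below has a spread between animals, no test between diets was possible, and every interval covers counting error only. Diet and library cannot be told apart. The filter stated by the study was over 500 UMIs (unique molecular identifiers, each marking 1 captured RNA molecule) and under 20% mitochondrial counts. After it 6322 HFD and 7500 NFD nuclei remained, of 6813 HFD and 7625 NFD barcodes. The study gave those same barcode numbers as its analysed cells, so the nuclei kept here are fewer.

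The endoplasmic reticulum (ER) folds secreted and membrane proteins, and cells that load it beyond its capacity switch on the unfolded protein response through 3 sensors in its membrane, encoded by Ern1 (IRE1), Eif2ak3 (PERK) and Atf6. IRE1 splices the Xbp1 messenger into the form that encodes an active transcription factor, PERK slows translation and favours synthesis of the transcription factor ATF4, and ATF6 is cut into an active factor. These factors raise chaperones such as BiP (Hspa5), and prolonged fat feeding is known to engage the pathway in hypothalamus and liver of rodents. Much of the regulation of Atf4 and Xbp1 happens in translation and splicing, which counts of 3′ ends do not measure.

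The HFD library was deeper, with a median of 7347.5 UMIs per nucleus against 4504.5 in NFD. A cluster led by cerebellar granule cell markers held 814 HFD nuclei and 9 NFD nuclei, so ratios over all nuclei compare unlike mixes of cells. Only 12 of the kept nuclei barcodes were shared between the libraries.

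The promoters of the 10 genes are shown first, because the response is known to act through short DNA elements near their starts. RefSeq windows of 250 bases before and 50 bases after the start (GRCm38.p6) were at hand for 9 of the 10 genes, all but Manf. The ER stress element, searched on both strands as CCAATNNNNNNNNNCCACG, is the site of NF-Y and ATF6, and ER stress element II was searched as ATTGG and CCACG with 1 base between them. The letters of the ER stress element lay in the windows of Hspa5, Hsp90b1, Pdia6 and Creld2, 4 of 9, against 0.119% of all 32851 windows. Those of element II lay in the window of Herpud1, against 0.0365% of all windows. The matches follow with 20 bases on either side, 5′ to 3′ along the gene, with the element in capitals.
Hspa5, chr2:34772005-34772063, plus strand: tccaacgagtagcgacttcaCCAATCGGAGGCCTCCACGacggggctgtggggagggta
Hsp90b1, chr10:86705513-86705676, minus strand: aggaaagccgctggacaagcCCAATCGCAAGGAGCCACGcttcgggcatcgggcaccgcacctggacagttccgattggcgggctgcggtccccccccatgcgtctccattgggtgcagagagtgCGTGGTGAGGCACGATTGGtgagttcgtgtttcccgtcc
Pdia6, chr12:17266471-17266529, plus strand: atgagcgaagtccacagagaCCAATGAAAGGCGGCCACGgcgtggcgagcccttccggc
Creld2, chr15:88819500-88819558, plus strand: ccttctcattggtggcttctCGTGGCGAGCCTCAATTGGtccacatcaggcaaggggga
Herpud1, chr8:94386357-94386407, plus strand: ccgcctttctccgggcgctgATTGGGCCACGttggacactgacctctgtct

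The element of Hspa5 began 65 bases before the RefSeq start, that of Pdia6 98 bases before it and that of Herpud1 52 bases before it. Hsp90b1 held 2 copies, the second on the opposite strand, and the copy of Creld2 was also on the opposite strand. The windows of Pdia4, Atf4, Xbp1 and Dnajb9 held neither set of letters, which says only that these letters are not in these windows. The unfolded protein response element, TGACGTGG, was in none of the 9 windows and in 0.676% of all windows. The letters of the CEBP-ATF response element, TGATGNAA, were in the Herpud1 window alone among the 9, against 3.97% of all windows.

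In the GENCODE M21 annotation (GRCm38) the genes lie as follows. Hspa5 (ENSMUSG00000026864) spans chr2:34771970-34777547 on the plus strand, so that its printed stretch lies inside the annotated gene, upstream of the RefSeq start. Hsp90b1 (ENSMUSG00000020048) spans chr10:86690209-86705509 and Pdia4 (ENSMUSG00000025823) spans chr6:47796141-47813430, both on the minus strand. Pdia6 (ENSMUSG00000020571, chr12:17266545-17284770, plus) and Creld2 (ENSMUSG00000023272, chr15:88819646-88826683, plus) encode a disulfide isomerase and a disulfide-linked folding factor. Manf (ENSMUSG00000032575, chr9:106838312-106891979, minus) shares its span with Rbm15b on the same strand and with 3 annotated genes on the other, so reads there may be split among them. Dnajb9 (ENSMUSG00000014905) spans chr12:44205559-44210326 on the minus strand, and Herpud1 (ENSMUSG00000031770) spans chr8:94386438-94395377 on the plus strand. Xbp1 (ENSMUSG00000020484, chr11:5520659-5525893) and Atf4 (ENSMUSG00000042406, chr15:80255184-80257541) are on the plus strand, and neither they nor Hspa5 and Creld2 overlap another annotated gene. The other genes besides Manf share part of their span with small RNA genes, unnamed gene models or, for Pdia6, with Atp6v1c2 on the opposite strand, and reads there are less certain.

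The nuclei were clustered without these genes, and clusters were named from marker lists. Names such as GABAergic-like rest on those markers and not on an annotation by the authors. GABAergic-like neurons (1579 HFD and 1860 NFD nuclei) carried Slc32a1, Gad1 and Gad2. Neurons whose glutamate markers, of which Slc17a6 encodes the midbrain's main vesicular transporter, summed to at least 2-fold their GABA markers are called Slc17a6 neurons (1323 HFD and 1659 NFD nuclei), and 2 clusters with markers of both transmitters are called mixed-transmitter neurons (1112 HFD and 1844 NFD nuclei). Levels are UMIs of the gene per 1000000 UMIs of the group (CPM), with exact Poisson 95% intervals, and are compared between groups and never between genes.

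The ER chaperones Hspa5 and Hsp90b1 were at their highest in ependymal-like cells, the ciliated lining of the ventricles and aqueduct (173 HFD and 106 NFD nuclei). Hspa5, which encodes the ER chaperone BiP that also holds the 3 sensors inactive, stood at 307 CPM (271 to 346) in HFD and 277 CPM (226 to 337) in NFD ependymal-like cells. In GABAergic-like neurons it stood at 67.5 CPM (63.6 to 71.7) in HFD and 84.5 CPM (79.4 to 89.9) in NFD. Among the 10 groups with at least 200000 UMIs in each library, to which all orders of levels given here are limited, the interval of ependymal-like cells lay above every other in both libraries. Endothelial-like cells (97 HFD and 257 NFD nuclei) came next, at 187 CPM (150 to 232) in HFD and 101 CPM (79.3 to 128) in NFD. In HFD their interval lay apart from that of the next group, and in NFD it overlapped that of GABAergic-like neurons. At the low end stood serotonergic-like neurons in HFD, with 30.9 CPM, and astrocyte-like cells in NFD, with 44.6 CPM, and from the third group down each neighbour's interval overlapped the next.

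**Figure D1:**
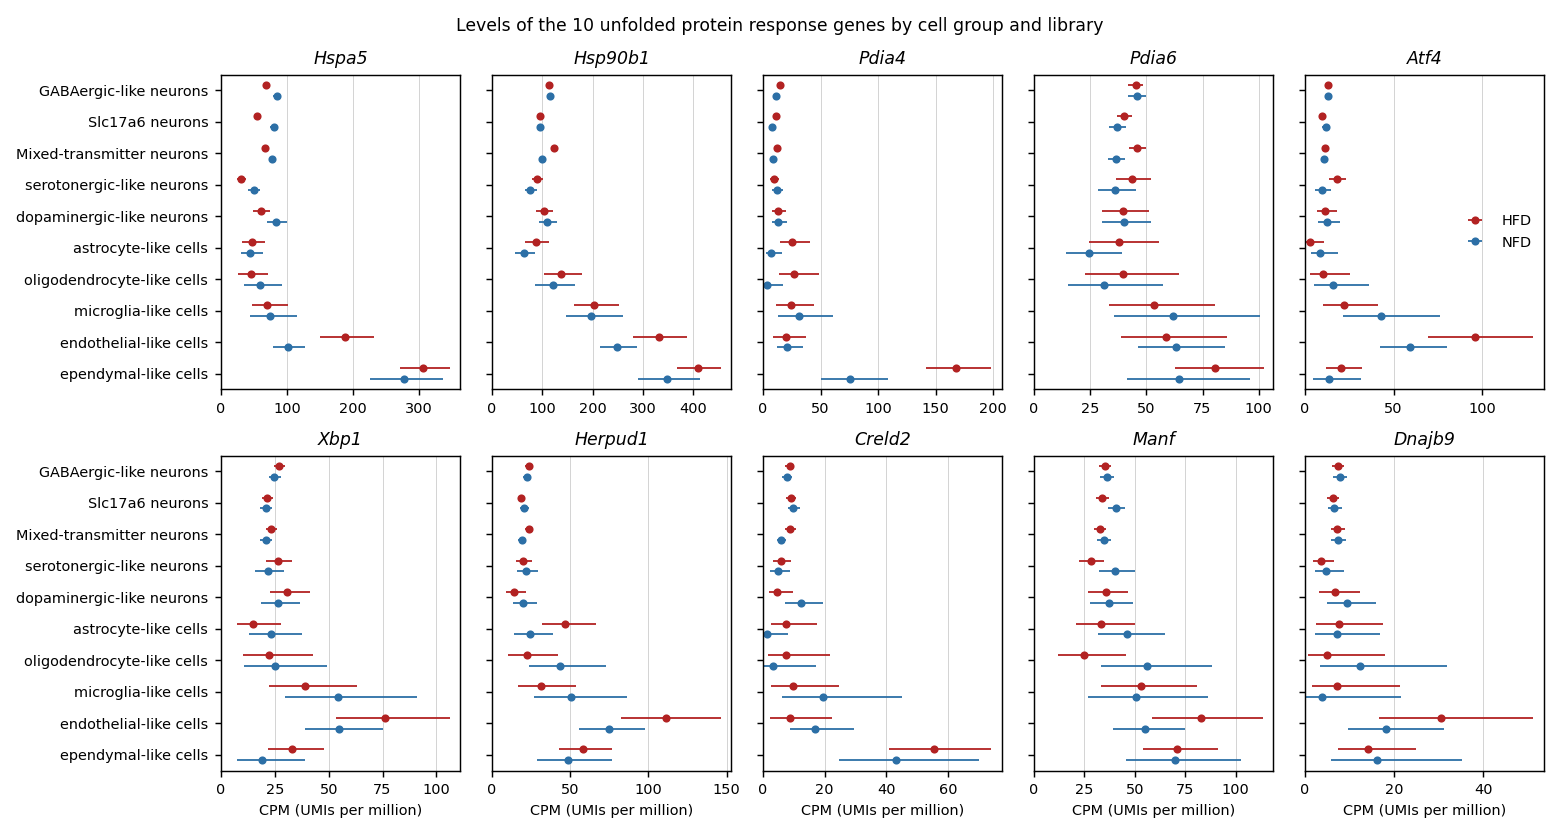
Level of each gene in CPM (horizontal axis, linear, starting at 0, with a scale of its own in each panel) in 10 cell groups with at least 200000 UMIs per library, HFD in red above NFD in blue. Bars are exact Poisson 95% intervals of the UMI count. Hspa5, Hsp90b1, Pdia4, Pdia6 and Creld2 are highest in ependymal-like cells, and Atf4, Xbp1, Herpud1 and Dnajb9 in endothelial-like cells. Several of these highest intervals overlap that of the next group.

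Hsp90b1, which encodes the ER form of the HSP90 chaperone, was also highest in these 2 groups. It stood at 410 CPM (368 to 455) in HFD and 348 CPM (290 to 413) in NFD ependymal-like cells, and at 331 and 249 CPM in HFD and NFD endothelial-like cells. In GABAergic-like neurons it stood at 114 CPM in HFD and 115 CPM in NFD. Its ependymal-like and endothelial-like intervals overlapped in HFD but not in NFD. Astrocyte-like cells were lowest, at 87.5 CPM in HFD and 63.3 CPM in NFD.

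The disulfide isomerases Pdia4 and Pdia6 and the folding factor Creld2 also had their highest level in ependymal-like cells, not always with intervals apart. Pdia4 had 168 CPM in HFD and 75.4 CPM in NFD ependymal-like cells, against 14.4 and 11.03 CPM in HFD and NFD GABAergic-like neurons. Creld2 had 55.7 CPM (40.9 to 74.0) in HFD and 43.1 CPM (24.6 to 70.0) in NFD ependymal-like cells, against 8.66 CPM in HFD and 7.69 CPM in NFD GABAergic-like neurons. These Creld2 levels in ependymal-like cells rest on 47 HFD and 16 NFD UMIs. For both genes the ependymal-like interval lay above every other in HFD, and in NFD it overlapped that of microglia-like cells. For Creld2 it overlapped that of endothelial-like cells in NFD as well. Pdia6 had 80.5 CPM in HFD and 64.7 CPM in NFD ependymal-like cells, and 58.9 and 63.3 CPM in HFD and NFD endothelial-like cells. Its intervals in ependymal-like, endothelial-like and microglia-like cells overlapped in both libraries. Pdia6 spanned 2.14-fold between its highest and lowest group in HFD, the narrowest span of the 10 genes there, and 2.64-fold in NFD, where that of Manf was narrower at 2.02-fold.

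The genes of the transcription factors and of ER-associated degradation were highest, among the same 10 groups, in endothelial-like cells instead. Atf4, which encodes the transcription factor made when PERK is active, had 95.9 CPM in HFD and 59.1 CPM in NFD endothelial-like cells, against 12.9 and 13.0 CPM in HFD and NFD GABAergic-like neurons. In ependymal-like cells Atf4 had 20.1 CPM in HFD and 13.5 CPM in NFD, a level close to that of neurons. Herpud1, whose product helps to clear misfolded proteins from the ER, had 111 CPM in HFD and 74.6 CPM in NFD endothelial-like cells, against 23.7 CPM in HFD and 22.3 CPM in NFD GABAergic-like neurons. Xbp1 had 76.3 CPM in HFD and 54.9 CPM in NFD endothelial-like cells, against 27.0 CPM in HFD and 24.8 CPM in NFD GABAergic-like neurons. Dnajb9, a BiP co-chaperone that acts on IRE1, had 30.5 and 18.3 CPM in HFD and NFD endothelial-like cells, against 7.36 and 7.77 CPM in HFD and NFD GABAergic-like neurons. For Atf4 and Herpud1 the endothelial-like interval lay above every other in HFD but overlapped that of microglia-like cells in NFD. For Herpud1 it also overlapped those of ependymal-like and oligodendrocyte-like cells in NFD. For Xbp1 the endothelial-like and microglia-like intervals overlapped in both libraries, and microglia-like cells had 54.3 CPM in NFD. The endothelial-like Xbp1 interval overlapped that of oligodendrocyte-like cells in NFD as well. For Dnajb9 the endothelial-like interval overlapped that of ependymal-like cells and of other groups in both libraries, on 14 HFD and 13 NFD endothelial-like UMIs. Manf, an ER protein that is also secreted as a neurotrophic factor, was highest of the 10 groups in endothelial-like cells in HFD, with 82.8 CPM, and in ependymal-like cells in NFD, with 70.0 CPM. Each of these Manf intervals overlapped that of the next group. Pericyte or vascular fibroblast-like cells, under the UMI limit, had 88.0 CPM of Manf in HFD and 112 CPM in NFD, on 5 UMIs in each library.

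Summed over the 10 genes, ependymal-like cells carried 1218 CPM in HFD and 975.2 CPM in NFD, and endothelial-like cells 1003 CPM in HFD and 714 CPM in NFD. GABAergic-like neurons carried 356 CPM in HFD and 368 CPM in NFD. In ependymal-like cells this was 3.42-fold the GABAergic-like level in HFD and 2.65-fold in NFD, and in endothelial-like cells it was 2.82-fold in HFD and 1.94-fold in NFD. Both groups also had larger shares of mitochondrial and cytosolic ribosomal protein RNA, and the part of these shares in the summed levels was not tested. Mitochondrial genes took 5.64% of UMIs in HFD and 5.92% in NFD ependymal-like cells, 2.29% and 1.93% in HFD and NFD endothelial-like cells, and 0.394% in HFD and 0.509% in NFD GABAergic-like neurons. Cytosolic ribosomal protein genes stood at 10.5-fold the GABAergic-like level in HFD and 7.58-fold in NFD endothelial-like cells, and at 3.52-fold and 3.32-fold in HFD and NFD ependymal-like cells.

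Split by mitochondrial share, a division chosen after seeing the data, endothelial-like nuclei differed widely. The summed level was 466 CPM (314 to 665) in 25 HFD nuclei and 207 CPM (128 to 316) in 51 NFD nuclei with under 0.2% mitochondrial counts. In nuclei with 1% to 5% it was 1177 CPM (1059 to 1305) in HFD and 938 CPM (847 to 1037) in NFD. In the lowest range the NFD endothelial-like level was thus 0.697-fold that of GABAergic-like neurons in the same range, on 21 UMIs. The HFD endothelial-like level there, on 30 UMIs, stayed above the 315 CPM (302 to 329) of HFD GABAergic-like neurons, with overlapping intervals. The 6 pan-neuronal markers also stood high in that range, at 4132 CPM in HFD and 4323 CPM in NFD, against 767 CPM in HFD and 1995 CPM in NFD nuclei with 1% to 5%. Ependymal-like nuclei with under 0.2% were too few to read (5 in NFD and under 5 in HFD), and with 1% to 5% they held 1288 CPM in HFD and 1269 CPM in NFD.

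In ependymal-like cells single nuclei weighed on Hspa5. The nucleus with the most UMIs of the 10 genes held 32 of 259 Hspa5 UMIs in HFD, and its NFD counterpart held 30 of 103. Without these 2 nuclei Hspa5 stood at 282 CPM in HFD and 211 CPM in NFD ependymal-like cells. The richest endothelial-like nucleus held 5 of 86 Hspa5 UMIs in HFD and 1 of 72 in NFD.

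Between diets, Hspa5 was below its NFD level and Pdia4 above it in all 3 large neuron groups, with every interval off 0. Manf and Dnajb9 were also below and Xbp1 above in all 3, but their intervals held 0 in some or all of these groups. The rest of the genes changed direction between groups. Ratios are log2 of HFD over NFD CPM with exact conditional binomial 95% intervals, for genes with at least 100 UMIs over both libraries. A gene is said to rise or fall where the whole interval lies beyond 0.32 in either direction, 25% higher or 20% lower in HFD. Over all nuclei Pdia4 alone of the 10 passed this, with 15.8 CPM in HFD and 10.7 CPM in NFD and a log2 ratio of 0.55 (0.39 to 0.72). Of all 16345 genes measured, 4.87% passed in either direction. With nuclei under 5% mitochondrial counts the ratio was 0.49 and no longer passed, and with the same mix of cell groups in both libraries it was 0.46. Hspa5 had 65.5 CPM in HFD and 80.5 CPM in NFD, a log2 ratio of -0.30 (-0.37 to -0.23). The interval lay off 0 for 7 of the 10 genes, against 46.2% of all genes. The median ratio of the 10 genes was 0.09, and that of all genes was -0.04.

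In GABAergic-like neurons, the cells the study was about, none of the 10 genes passed this rule, which 1.99% of 12140 genes did. Hspa5 had 1091 UMIs (67.5 CPM) in HFD and 1011 UMIs (84.5 CPM) in NFD, with a log2 ratio of -0.32 (-0.45 to -0.20). Pdia4 had 233 UMIs (14.4 CPM) in HFD and 132 UMIs (11.03 CPM) in NFD, with a log2 ratio of 0.39 (0.07 to 0.71). These were the 2 genes of the 10 whose interval lay off 0, which held for 30.9% of all genes. The other 8 genes had log2 ratios between -0.08, for Dnajb9, and 0.17, for Creld2, and all their intervals held 0. Hsp90b1 bounded the difference most closely, with 113.6 CPM in HFD and 115.4 CPM in NFD and a log2 ratio of -0.02 (-0.12 to 0.08). The median of the 10 genes was -0.01 beside -0.04 for all genes.

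**Figure D2:**
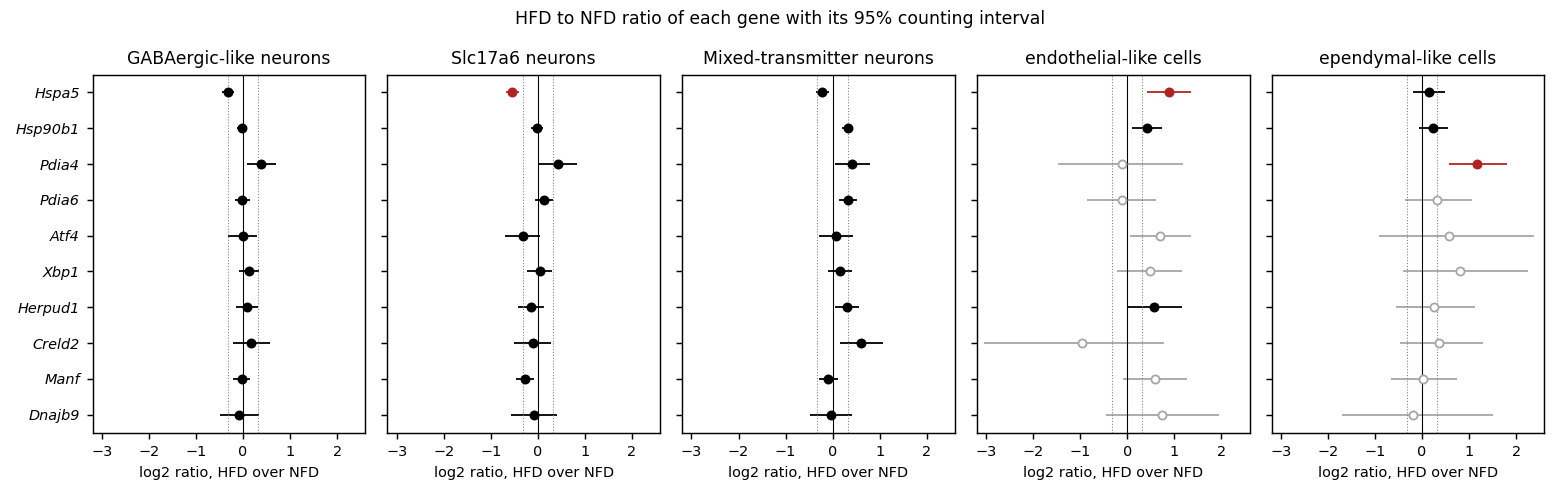
log2 ratio of HFD over NFD CPM (horizontal axis) for each gene in 5 cell groups, with 95% counting intervals. Red points have an interval wholly beyond 0.32 in either direction (dotted lines), black points do not, and open grey points have under 100 UMIs. Hspa5 lies left of 0 in the 3 neuron groups and at 0.89 in endothelial-like cells.

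Hspa5 fell in HFD Slc17a6 neurons, with 739 UMIs (54.7 CPM) in HFD and 800 UMIs (79.6 CPM) in NFD and a log2 ratio of -0.54 (-0.69 to -0.39). It was the only one of the 10 genes to pass there, and 1.99% of 11687 genes passed. The ratio was -0.60 after thinning to 2000 UMIs and -0.21 under 0.2% mitochondrial counts, and it passed in neither. Manf had 33.8 CPM in HFD and 40.8 CPM in NFD Slc17a6 neurons (-0.27, -0.47 to -0.08), and Pdia4 had 10.96 CPM in HFD and 8.16 CPM in NFD (0.43, 0.03 to 0.83). Intervals lay off 0 for 3 of the 10 genes, against 31.3% of all genes. In mixed-transmitter neurons none passed, beside 2.12% of 11643 genes. This group pooled 1 cluster of 590 HFD and 1335 NFD nuclei with 1 of 522 HFD and 509 NFD nuclei. Its ratios thus also compare unlike mixes of cells, and in neither cluster alone did the interval lie off 0 for Pdia4 or Herpud1. In the pooled group 6 of the 10 intervals lay off 0, against 32.4% of all genes. Those above 0 were Hsp90b1 (124 CPM in HFD and 99.6 CPM in NFD, 0.32), Pdia6 (45.9 and 36.5 CPM in HFD and NFD, 0.33), Pdia4 (12.04 and 8.99 CPM in HFD and NFD, 0.42), Herpud1 (23.6 and 19.1 CPM in HFD and NFD, 0.31) and Creld2 (8.87 and 5.81 CPM in HFD and NFD, 0.61). Hspa5 was below 0 there (67.2 CPM in HFD and 78.0 CPM in NFD, -0.22).

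Across single clusters of neurons Hspa5 mostly kept one direction, as did some of the other genes. The Hspa5 ratio was below 0 in 10 of 11 neuronal clusters, with the interval below 0 in 8. The lowest ratio was -0.67 in the serotonergic-like cluster and the highest 0.06 in the GABAergic-like cluster 7. In serotonergic-like neurons Hspa5 had 92 UMIs (30.9 CPM) in HFD and 104 UMIs (49.4 CPM) in NFD. None of the 6 genes measurable there passed the rule, which 3.04% of 6410 genes did. Dopaminergic-like neurons had 60.3 CPM in HFD and 84.1 CPM in NFD (-0.48, -0.89 to -0.07). Manf was also below 0 in 10 of the 11 clusters, with 2 intervals below 0, and Dnajb9 was below 0 in 9. Pdia4 and Xbp1 were above 0 in 9 clusters each. Hsp90b1 was split, above 0 in 5 and below 0 in 6. Of all genes, 7132 of 12140 were below 0 in GABAergic-like, 6836 of 11687 in Slc17a6 and 5391 of 11643 in mixed-transmitter neurons. Several of the other genes had under 100 UMIs in some of these clusters, and no cluster had an interval off 0 for Pdia4, Xbp1, Herpud1 or Dnajb9.

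The level of Hspa5 also moved with the mitochondrial share of a nucleus, and that share differed between the libraries. Nuclei with under 0.2% mitochondrial counts made up 37.8% of HFD and 27.5% of NFD GABAergic-like nuclei. From under 0.2% through 0.2% to 1% to the range of 1% to 5%, Hspa5 in HFD GABAergic-like nuclei was 56.9, 71.8 and 94.98 CPM. In NFD GABAergic-like nuclei it was 59.9, 88.6 and 124 CPM over the same ranges. The HFD to NFD log2 ratio was -0.07 (-0.32 to 0.18) in the lowest range, -0.30 (-0.47 to -0.14) in the middle range and -0.38 (-0.74 to -0.04) in the highest. In Slc17a6 neurons the 3 ratios were -0.21 (-0.47 to 0.05), -0.60 (-0.80 to -0.39) and -0.59 (-1.06 to -0.15) in the same order. In both groups the ratio was thus nearer 0 in the lowest range than in the pooled nuclei, and its interval held 0 there. In mixed-transmitter neurons the ratios were -0.17, -0.14 and -0.44, and all 3 intervals held 0.

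**Figure D3:**
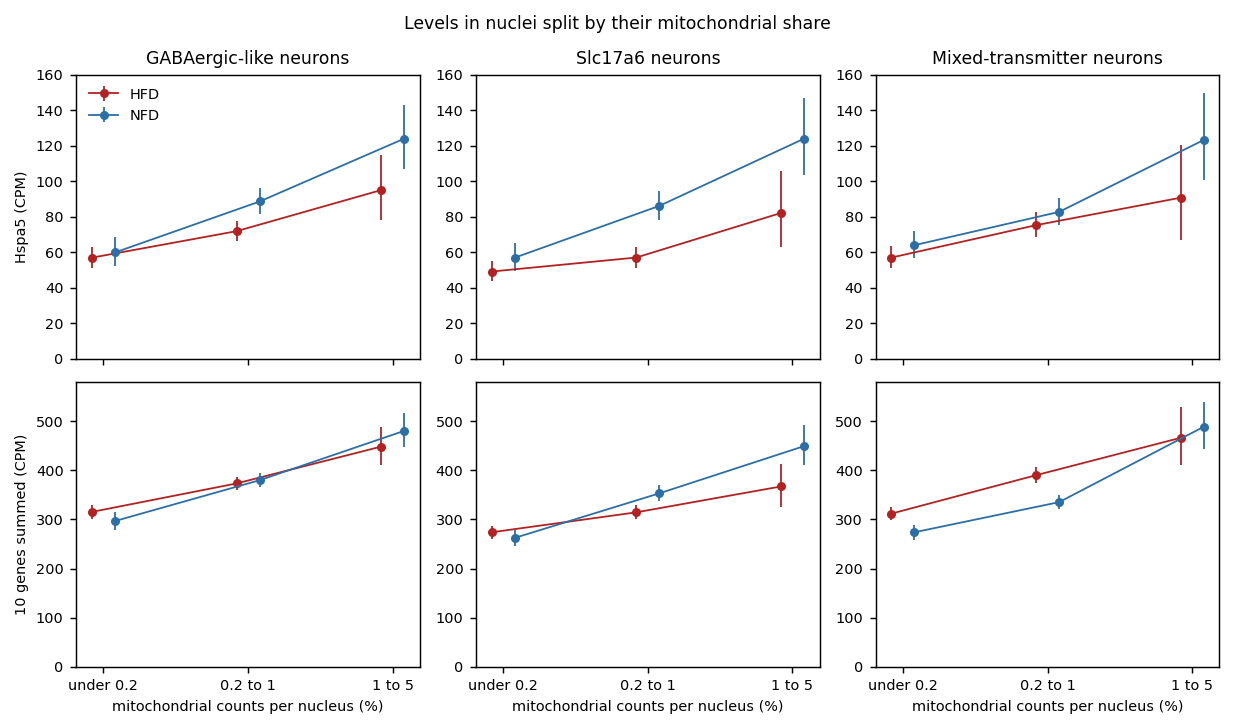
Hspa5 (top) and the sum of the 10 genes (bottom) in CPM (vertical axes, from 0) in nuclei split by mitochondrial share (horizontal axis), with exact Poisson 95% intervals, HFD in red and NFD in blue. Both are higher at a higher mitochondrial share in all 3 neuron groups, and the Hspa5 levels of the diets lie closest under 0.2% in GABAergic-like and Slc17a6 neurons.

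Within HFD GABAergic-like nuclei, the 6 genes with at least 100 UMIs in the outer ranges had a median log2 ratio of 0.40 for 1% to 5% over under 0.2%, and 0.61 in NFD. The interval lay above 0 for 3 of these 6 in HFD and for 4 of 6 in NFD, against 12.6% of all genes in HFD and 12.3% in NFD. The median of all genes was 0.08 in HFD and 0.07 in NFD, and that of cytosolic ribosomal protein genes was 0.82 in HFD and 0.64 in NFD. Hspa5 itself had 0.74 (0.42 to 1.05) in HFD and 1.05 (0.76 to 1.34) in NFD. Herpud1 had -0.05 in HFD and 0.24 in NFD, with intervals that held 0. What part the mitochondrial share has in the difference between diets was not tested.

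Pdia4 rose in HFD ependymal-like cells, with 142 UMIs (168 CPM) in HFD and 28 UMIs (75.4 CPM) in NFD and a log2 ratio of 1.16 (0.56 to 1.80). Of the 3 genes measurable there it was the only one to pass, and 6.63% of 2533 genes passed. Hspa5 (0.14, -0.19 to 0.49) and Hsp90b1 (0.24, -0.06 to 0.54) did not. The Hspa5 ratio there depended on which nuclei were counted, with -0.00 in nuclei of 1% to 5% mitochondrial counts (387 CPM in HFD and 388 CPM in NFD), 0.42 (0.03 to 0.82) without the 2 richest nuclei and 1.02 after thinning. With 1% to 5% mitochondrial counts Pdia4 was 180 CPM in HFD and 85.6 CPM in NFD (1.07, 0.29 to 1.94), on 67 and 17 UMIs in HFD and NFD, too few for a call. After thinning no gene passed in ependymal-like cells. Without the 2 nuclei richest in the 10 genes the interval of its ratio was 0.63 to 1.93. Pdia3, another disulfide isomerase of the ER, also rose, with 149 CPM in HFD and 70.0 CPM in NFD ependymal-like cells (1.09, 0.47 to 1.76). It was named after its value was seen. Of the 6 measurable genes in a list of ER folding enzymes and chaperones, Pdia3 alone passed there, with 4 above 0 and 2 below.

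Hspa5 rose in HFD endothelial-like cells, the opposite of its direction in neurons. It had 86 UMIs (187 CPM) in HFD and 72 UMIs (101 CPM) in NFD, with a log2 ratio of 0.89 (0.42 to 1.36). It was the only one of 3 measurable genes to pass, in a group where 16.4% of 2694 genes passed. Hsp90b1 had 331 CPM in HFD and 249 CPM in NFD (0.41, 0.09 to 0.73), and Herpud1 had 111 CPM in HFD and 74.6 CPM in NFD (0.58, -0.01 to 1.16). In nuclei with 1% to 5% mitochondrial counts Hspa5 stood at 237 CPM in HFD and 138 CPM in NFD (0.79, 0.26 to 1.32), which no longer passed. The rule was also not met with the median of all genes set to 0, with thinning, with nuclei of 2000 to 16000 UMIs alone or with 30 principal components. The group was not pure. Its 6 pan-neuronal markers summed to 1901 CPM in HFD and 3364 CPM in NFD, against 7636 CPM in HFD and 7848 CPM in NFD GABAergic-like neurons, and all 7 pericyte or vascular fibroblast markers were detected, summing to 4024 CPM in HFD and 3271 CPM in NFD. The part of these other cells in the Hspa5 ratio was not tested.

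The GABAergic-like nuclei in which any of the 3 GABA markers was detected were split further into 8 subclusters, and the smallest, of 15 HFD and 31 NFD nuclei, is left out here. Hspa5 ranged from 53.1 to 79.8 CPM over these 7 in HFD and from 50.2 to 112 CPM in NFD. The ratio was below 0 in 5 of the 6 subclusters with at least 100 Hspa5 UMIs. Subcluster 0, led by Six3, had 392 UMIs (79.8 CPM) in HFD and 320 UMIs (112 CPM) in NFD, with a log2 ratio of -0.49 (-0.70 to -0.27), and was the only one of the 6 whose interval lay off 0. Subcluster 3, led by Nr4a2, was the exception in direction, with 58.4 CPM in HFD and 50.2 CPM in NFD (0.22, -0.30 to 0.76). Pdia4 had at least 100 UMIs in subcluster 0 alone, with a log2 ratio of -0.10. Whether subclusters differ from one another in these ratios was not tested.

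In each large neuron group of both libraries the other 9 genes summed higher in thinned nuclei with 1 Hspa5 UMI than in those with none. Whether the groups differ in this was not tested. After thinning each nucleus to 2000 UMIs, which evens out depth, 186 HFD and 242 NFD GABAergic-like nuclei held 1 Hspa5 UMI. The other 9 genes summed to 395 CPM (334 to 464) in these HFD nuclei and 380 CPM (327 to 439) in these NFD nuclei. In nuclei with no Hspa5 UMI they summed to 297 CPM (277 to 319) in HFD and 278 CPM (260 to 297) in NFD. In Slc17a6 neurons the sums were 295 CPM (233 to 367) with 1 UMI and 258 CPM (238 to 280) with none in HFD, and 333 CPM (281 to 393) and 262 CPM (243 to 282) in NFD. The intervals overlapped in Slc17a6 neurons of both libraries and lay narrowly apart in GABAergic-like neurons of both libraries. In mixed-transmitter neurons the sums were 351 CPM (283 to 431) with 1 UMI and 309 CPM (285 to 335) with none in HFD. In NFD they were 320 CPM (268 to 380) and 234 CPM (218 to 252), and the intervals lay apart in NFD only. The few nuclei with at least 2 Hspa5 UMIs had intervals apart from those with none in NFD of every one of these neuron groups. In HFD these intervals overlapped in every one of them. Ribosomal protein genes moved in the same direction, with 1056 CPM with 1 Hspa5 UMI and 777 CPM with none in HFD GABAergic-like nuclei, and 1128 and 897 CPM in NFD.

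**Figure D4:**
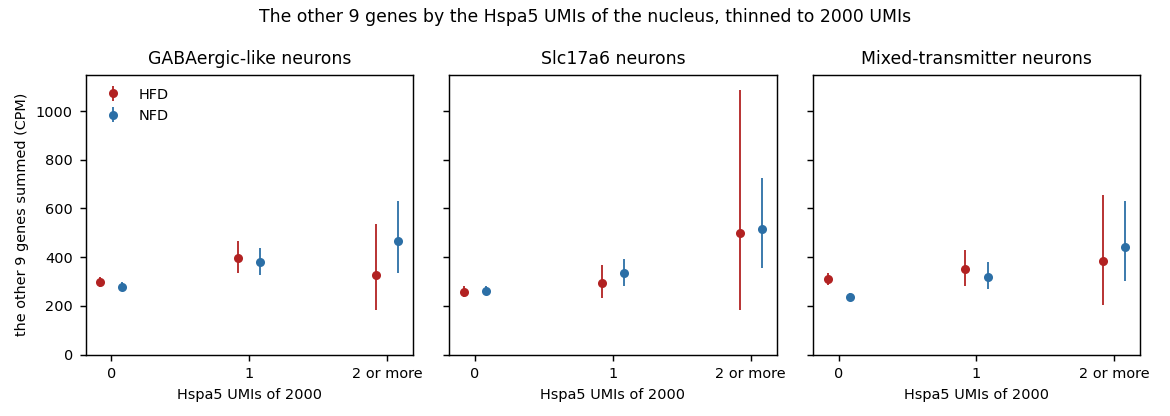
Sum of the other 9 genes in CPM (vertical axis, from 0) in nuclei with 0, 1 or at least 2 Hspa5 UMIs after thinning to 2000 UMIs (horizontal axis), with exact Poisson 95% intervals, HFD in red and NFD in blue. In GABAergic-like neurons the sum is higher with 1 Hspa5 UMI than with none in both libraries, and the rightmost groups are small and wide.

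In thinned ependymal-like cells the other 9 genes summed to 1725 CPM (1342 to 2183) in the 20 HFD nuclei with at least 2 Hspa5 UMIs, against 687 CPM (572 to 818) in the 91 HFD nuclei with none. Only 2 thinned NFD nuclei had at least 2. Unthinned, the other 9 genes summed to 1180 CPM (1078 to 1289) in the 47 HFD nuclei with at least 2 Hspa5 UMIs and to 1033 CPM (868 to 1220) in the 11 such NFD nuclei. In ependymal-like nuclei with no Hspa5 UMI the sums were 681 CPM (587 to 787) in HFD and 481 CPM (375 to 608) in NFD. The richer nuclei were also deeper, with medians of 6202 UMIs in HFD and 6716 UMIs in NFD against 2550 in HFD and 1569 in NFD.

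The rest of the pathway was read from 4 related lists in GABAergic-like neurons, and no gene of them passed the rule. ER folding enzymes and chaperones had 19 measurable genes with a median log2 ratio of -0.03, 8 above 0 and 11 below. Among them Hyou1, a BiP-related chaperone, had 15.1 CPM in HFD and 15.5 CPM in NFD (-0.04, -0.32 to 0.24). Dnajb11, a BiP co-chaperone, had 20.3 CPM in HFD and 16.1 CPM in NFD (0.34, 0.08 to 0.60). Sdf2l1, an ER protein induced by stress, had 41 UMIs in HFD and 32 in NFD, under the minimum. ER-associated degradation and translocation had 19 measurable genes and a median of -0.03.

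The sensors and transducers had 11 measurable genes, with 2 above 0, 9 below and a median of -0.14. Ern1 had 33.6 CPM in HFD and 35.8 CPM in NFD (-0.09, -0.28 to 0.10), Eif2ak3 had 32.1 and 36.2 CPM in HFD and NFD (-0.17, -0.36 to 0.02), and Atf6 had 92.8 and 90.7 CPM in HFD and NFD (0.03, -0.08 to 0.15). Targets of ATF4 and CHOP had 12 measurable genes, with 3 above 0, 9 below and a median of -0.14. Ddit3, which encodes CHOP, had 161 UMIs (9.96 CPM) in HFD and 103 UMIs (8.61 CPM) in NFD (0.21, -0.15 to 0.58), counted under the first of 2 gene identifiers that share the symbol, the other having no UMI.

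**Figure D5:**
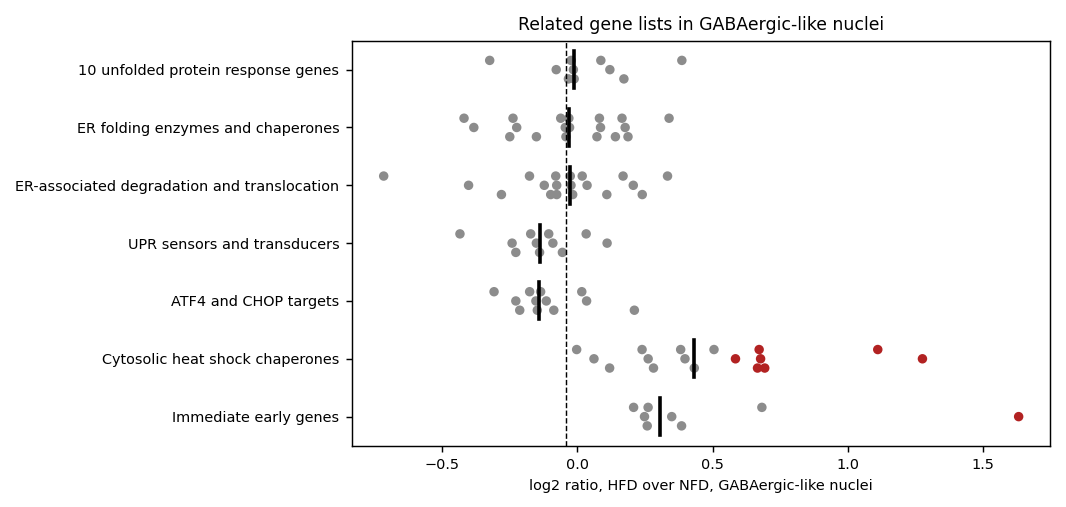
log2 ratio of HFD over NFD CPM in GABAergic-like nuclei (horizontal axis) of each gene with at least 100 UMIs in 7 lists (rows), with the list median as a black bar and the median of all genes as a dashed line. Red points have an interval wholly beyond 0.32 in either direction. Heat shock chaperones lie to the right, with a median of 0.43, while the 5 lists of ER and stress response genes centre near the line or left of it.

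The heat shock chaperones, most of them of the cytosol, answer to heat shock factors and not to the ER sensors, and they differed from this. Of 17 measurable genes 7 rose and none fell in HFD GABAergic-like neurons, with 16 above 0 and a median of 0.43, beside 0.544% of all genes that rose. The list was written with earlier results of these data known, so this contrast was partly fixed in advance. The study had already reported Hsph1 and Stip1 as higher in HFD in its GABAergic cells. Hsph1, an HSP110 chaperone, had 84.4 CPM in HFD and 34.9 CPM in NFD (1.28, 1.12 to 1.44). Dnajb1, an HSP40 co-chaperone, had 10.6 CPM in HFD and 4.93 CPM in NFD (1.11). Dnaja1 (62.1 and 38.4 CPM in HFD and NFD), Stip1 (77.9 and 48.7 CPM in HFD and NFD) and Ahsa1 (26.4 and 16.5 CPM in HFD and NFD), all partners of HSP70 or HSP90, had ratios of 0.69, 0.68 and 0.67. The list had medians of 0.39 in Slc17a6 neurons, 0.47 in mixed-transmitter neurons, 0.54 in serotonergic-like neurons, 0.67 in ependymal-like cells and 1.09 in endothelial-like cells, and no gene of it fell in any of them. The medians of the 10 ER genes in these groups were -0.10, 0.23, 0.05, 0.24 and 0.58, the last 2 over 3 genes each. Among immediate early genes, read as a list that reports cell activation, Nr4a3 alone rose in GABAergic-like neurons (8.54 CPM in HFD and 2.76 CPM in NFD, 1.63). All 8 measurable genes were above 0, with a median of 0.31, beside 5008 of all 12140 genes. The interval lay off 0 for 2 of the 8, against 30.9% of all genes.

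The profile of the 10 genes over groups was shared by some genes outside the pathway. Over 20 points, 10 cell groups in 2 libraries, each of the 10 genes was set against the mean of the other 9 on a log2(CPM + 10) scale. Hsp90b1 was most like the rest (Pearson r = 0.96) and Xbp1 least (0.59). Without ependymal-like and endothelial-like cells, r was 0.87 for Hsp90b1, 0.39 for Hspa5 and -0.14 for Dnajb9 over 16 points. Of 11574 other genes with at least 500 UMIs, those most like the mean of the 10 were Gcnt2 (0.98), Hnrnpf (0.97), Hsp90ab1 (0.96), Cct2 (0.96) and Gm42418 (0.96), and without those 2 groups their r values were 0.92, 0.84, 0.76, 0.84 and 0.78. Hsp90ab1 and Cct2 encode parts of cytosolic chaperones and Hnrnpf an RNA-binding protein. Points of one library share depth and free RNA, so these values describe the libraries.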

How the data were processed

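Counts of UMIs for every gene in every barcode were deposited, 55133689 in HFD and 41180006 in NFD. Per the submitters' notes and the matrix header the authors used bcl2fastq 5.01, Cell Ranger 4.0.0, GRCm38 and Seurat 3.1.1. The use of intronic reads was not stated in any source read. The genes followed here and all lists were chosen with earlier results of these data known.

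Nuclei with over 500 UMIs and under 20% mitochondrial counts were normalized and clustered in Seurat 5.3.0 (R 4.3.3), both libraries together, with 1983 of 2000 variable genes, the followed and listed genes left out, 20 principal components and a resolution of 0.5 (0.1 for GABAergic-like nuclei). A cluster took the name of a marker list that had a mean log2 fold of at least 1 (after adding 10 CPM), led the next list by at least 1, and had at least 3 markers in at least 10% of nuclei and 1 among the 10 leading genes. Other neuronal clusters were GABAergic-like with all 3 GABA markers in at least 10% of nuclei and at least 2-fold the glutamate markers, Slc17a6 neurons with the reverse 2-fold, and mixed where the sums lay within 3-fold. This rule was set after the clusters were seen, and 4 clusters stayed unnamed. Scrublet marked 1 nucleus in both libraries together and so was not used, and doublets were kept.

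Counts were summed per library and group in Python 3.11.15 (pandas 2.3.3, scipy 1.17.1, numpy 2.4.6) and plotted with matplotlib 3.10.9. A gene needed 100 UMIs over both libraries for a call. A count of 0 allows up to 3. With 1 library per diet no test, p-value or standard error was computed. The interval and the call rule were checked on simulated counts. The text names all 10 genes, 7 set pathway genes, list genes past the call limit in GABAergic-like neurons (at most 5 a list) and the 5 genes of most alike profile. Alternatives were another total, centring, weighting of nuclei, thinning, depth, mitochondrial and doublet limits, clusterings, folds and minimums.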

Additional observations from a re-analysis of the deposited data

Results flagged for a closer look

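Hspa5 moved in opposite directions between diets in different cells. Its log2 ratio of HFD over NFD CPM was 0.89 in endothelial-like cells, and -0.32 in GABAergic-like, -0.54 in Slc17a6, -0.22 in mixed-transmitter, -0.67 in serotonergic-like and -0.48 in dopaminergic-like neurons. With 1 library per diet the difference between these ratios was not tested.

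Barcodes that failed the filter on depth and mitochondrial counts, and enter no comparison, also carried the 10 genes. In HFD 491 such barcodes held 319 UMIs of them, 584 CPM (522 to 652) against 356 CPM in kept HFD nuclei. In NFD 125 barcodes held 85 UMIs, 620 CPM (496 to 767) against 352 CPM in kept NFD nuclei. Mitochondrial genes took 35.3% of UMIs in the failed HFD barcodes and 30.4% in the failed NFD barcodes, and the part of that share in the higher level was not tested.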

How the results depend on the processing

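No paired analysis was possible because each diet had 1 library. Of the values for counts, medians and folds under the alternatives, 320 stayed close to the reported value, 45 moved and 1 reversed, and the causes were not tested. The under 0.2% mitochondrial limit and the removal of the granule-like cluster were chosen after seeing the data. With the interval only required to exclude 0, the 10 genes had 7 calls over all nuclei, beside 46.2% of all genes. They had 2 in GABAergic-like, 3 in Slc17a6 and 6 in mixed-transmitter neurons, beside 30.9%, 31.3% and 32.4% of all genes. In endothelial-like cells 2 of 3 measurable genes were called, beside 650 higher and 438 lower of all 2694 genes. In GABAergic-like neurons, beside the same 30.9%, the lists had 8 of 19 measurable genes (ER folding), 5 of 19 (degradation) and 2 of 11 (sensors). The others had 3 of 12 (ATF4 and CHOP targets), 13 of 17 (heat shock) and 2 of 8 (immediate early). At 1.5-fold no call of the 10 genes was left over all nuclei, in Slc17a6 neurons, ependymal-like or endothelial-like cells (0 each), and 2 heat shock genes were. The endothelial-like call was lost (0) with the median of all genes set to 0, with nuclei of 2000 to 16000 UMIs, with thinning to 2000 UMIs and with 30 principal components. Thinning also left 0 calls in Slc17a6 neurons, ependymal-like cells and immediate early genes, and gave medians of 0.20 over all nuclei and 0.79 in ependymal-like cells, which the mean over nuclei put at 0.75. Nuclei of 2000 to 16000 UMIs gave a median of 0.20 over all nuclei and 2 immediate early genes. Over all nuclei the call was lost (0) under 5% and under 0.2% mitochondrial counts. Under 0.2% there were also 0 calls in Slc17a6 neurons and of immediate early genes and 4 heat shock genes, the other 9 genes stood at 1.14-fold in NFD GABAergic-like nuclei with an Hspa5 UMI, and the endothelial-like sum at 0.70-fold the GABAergic-like one in NFD, which reversed it. The HFD fold under 0.2% was not among these alternatives, as only 25 HFD endothelial-like nuclei fell there. The ependymal-like fold was 3.07 in HFD and 1.90 in NFD with thinning, 3.16 in HFD and 2.22 in NFD at resolution 0.3, 3.16 in HFD with 30 components and 3.69 in HFD under 5%. The endothelial-like fold was 3.14 in HFD with thinning, and 3.25 in HFD and 2.75 in NFD with 30 components. With thinning the other 9 genes stood at 1.30-fold in HFD and 1.42-fold in NFD nuclei with an Hspa5 UMI, against 1.15 in HFD and 1.31 in NFD unthinned. Over the alternatives the Hspa5 log2 ratio lay between -0.42 and -0.07 in GABAergic-like and between -0.60 and -0.21 in Slc17a6 neurons.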
